A study of Mus musculus with 6 samples.

Results

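The genes described here are 8 members of a family of cell surface proteases and their regulators, taken by symbol from 53090 rows per file: the ADAM genes Adam8, Adam9, Adam10, Adam15, Adam17 and Adam19, and the rhomboid pseudoprotease genes Rhbdf1 and Rhbdf2. Each symbol had 1 row, and 7 of the 8 members had enough reads to be among the 13458 genes tested. RNA was sequenced from Ly6G-selected cells, Ly6G being a surface protein of mouse neutrophils, of mice that had received a diet with 3,5-diethoxycarbonyl-1,4-dihydrocollidine (DDC), which injures bile ducts, for 1 week. There were 3 libraries of cells that had infiltrated the liver and 3 of circulating cells, and every mouse of either group was on the diet, so that no untreated level is at hand. The liver cells passed a Percoll gradient and the blood cells a red cell lysis, and this handling cannot be told apart from the tissue. Strain, sex and age are not in the labels, nor is it stated if the same mouse gave blood and liver cells, so p-values measure only the spread between these libraries.

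ADAM proteins are membrane-anchored metalloproteases with a disintegrin domain that cut the outer parts of other surface proteins, a step called shedding. ADAM17, also named TACE, releases TNF and receptors of TNF and interleukin 6, and ADAM10 starts the processing of Notch and of the amyloid precursor protein. The iRhoms, encoded by Rhbdf1 and Rhbdf2, are relatives of rhomboid proteases without catalytic activity that carry ADAM17 through the secretory pathway and stay with it at the surface. In blood leukocytes iRhom2, from Rhbdf2, is known as the main form. These proteins are controlled largely after translation, and transcript levels do not measure shedding.

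Totals ran from 13054684 to 17579671 expected counts per library. Markers of other cells differed between the groups. Of all 13458 tested genes 17.4% were called higher in liver and 14.2% lower, and these shares are the background for the marker counts here. Monocyte markers summed to 3326 to 4345 CPM (counts scaled to the library size with TMM factors) in the liver libraries. In the blood libraries their sums were 693 to 1120 CPM, with 7 of 12 tested markers higher in liver and 0 lower. Most of each liver sum was Nr4a1 (2083, 1990 and 2352 CPM for liver 1, 2 and 3), so the liver sums rest mainly on 1 gene. Also called higher were Fn1 (15.6-fold), Ccr2 (13.3-fold), F13a1 (6.98-fold), Cx3cr1 (5.45-fold), Ms4a4c (4.20-fold) and Treml4 (2.34-fold). The listed markers Ly6c2, Csf1r, Ace, Cd300e and Spn were not called. Kupffer cell and macrophage markers summed to 615 to 986 CPM and 369 to 582 CPM, with 6 of 13 higher, and platelet markers to 50.8 to 62.9 CPM and 74.9 to 492 CPM, with 5 of 8 lower. Neutrophil markers were present in every library and summed to 7923 to 13600 CPM in liver and 21317 to 32619 CPM in blood, with 8 of 12 lower in liver and 0 higher. Hepatocyte markers summed to 273 to 500 CPM and 108 to 153 CPM, with 7 of 8 higher and 0 lower. Nearly all of the blood sums was Trf, at 146, 108 and 117 CPM in blood 1, 2 and 3. Trf had 254, 175 and 255 CPM in liver 1, 2 and 3. Alb was uneven, with 7.25, 73.2 and 148 CPM in liver 1, 2 and 3 and at most 2.44 CPM in blood. Dendritic cell markers summed to 218 to 268 CPM and 127 to 161 CPM, with 5 of 10 higher and 0 lower. Liver endothelial markers had 6 of 7 higher and 0 lower, and cholangiocyte markers, at 63.3 to 101 CPM and 11.4 to 14.9 CPM, had 3 of 4 higher and 1 lower. The higher ones were Spp1, at a mean of 55.7 CPM in liver, Krt8 and Krt18, and Krt7 was 3.33-fold lower. Krt19, Epcam, Sox9 and Cftr had 17, 19, 14 and 2 counts in the liver group and were not tested. Of T and NK cell markers 1 of 9 was lower and of B and plasma cell markers 2 of 8 were lower, with 0 higher in either list. Counts this small cannot be set apart from the 14.2% of all tested genes that were lower. The 1 tested stellate cell marker was not called. Erythroid markers ran from 143 to 2730 CPM in liver and from 367 to 33698 CPM in blood, highest in blood 1, and 0 of 7 were called. No listed marker of these types was at 0 in all 6 libraries. Many called markers entered the test only through the liver libraries, so their direction says nothing about their lists. Among these were Alb, Apoa1, Apoa2, Serpina1c, Hpx, Ahsg, Krt8, Krt18, Stab2, Ptprb, Kdr and Cdh5. So were Clec4f, Vsig4, Marco, Folr2, Siglech, Xcr1, Cd209a, Bst2 and Ms4a4c. Ppbp, Cd79b and Cd3d, called lower, entered only through the blood libraries. In such bulk samples fewer cells of a type and less RNA per cell cannot be told apart.

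Adam17 and Adam9 rose and Adam19 fell in the liver cells, while Adam8, Adam10, Adam15 and Rhbdf2 did not pass the test. Adam17 was 1.89-fold and Adam9 1.89-fold higher in liver, and Adam19 was 5.21-fold lower. Thus 2 of 7 tested members were called higher, where 17.4% of all tested genes were, and 1 of 7 was called lower, where 14.2% were. Together 3 of 7 members were called against 31.6% of all genes, so the share called among the members was near that background. The calls are those of edgeR's quasi-likelihood test at a Benjamini-Hochberg adjusted p under 0.05 over all tested genes.

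**Figure D1:**
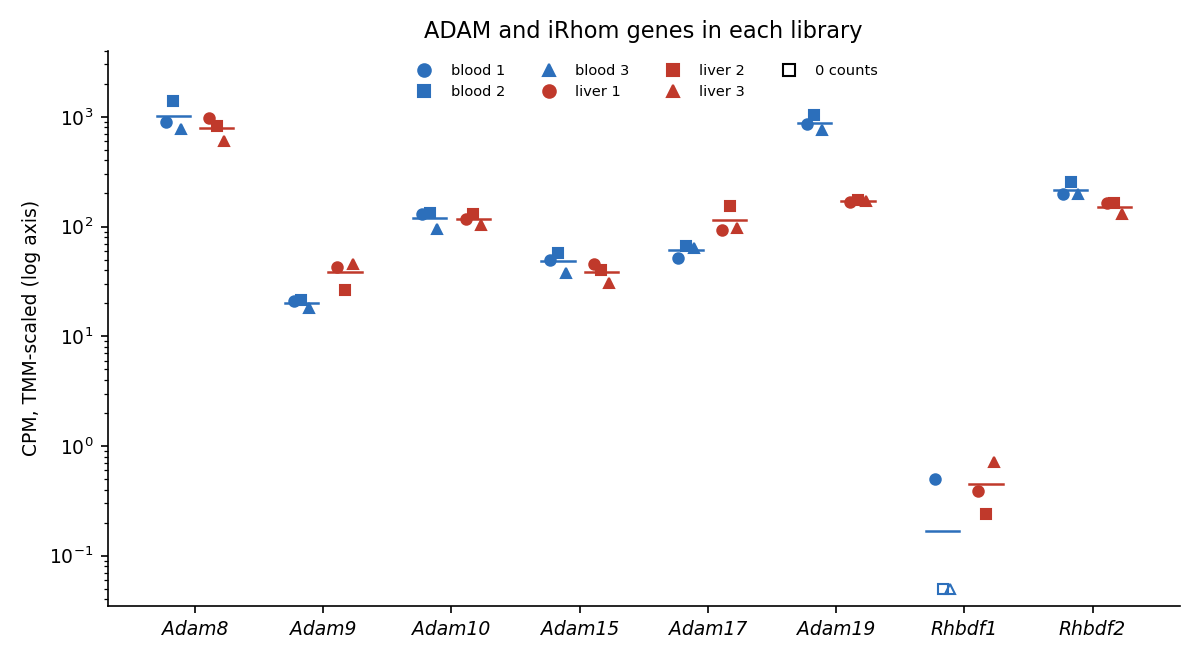
CPM of each member in each library on a log axis, with circles, squares and triangles for libraries 1, 2 and 3 and short lines at the group means. Adam19 in liver (168 to 173 CPM) lies far under its blood values (757 to 1040 CPM), Adam17 and Adam9 lie higher in liver, and Rhbdf1 is near the floor, with 2 open symbols for libraries at 0 counts, drawn at the foot of the axis.

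Adam17 (ENSMUSG00000052593.15) lies on the minus strand of chromosome 12 from 21323509 to 21373632 (GRCm38). It had 93.7, 154 and 97.9 CPM in liver 1, 2 and 3 and 51.9, 66.9 and 64.2 CPM in blood 1, 2 and 3. Every liver library was above every blood library, and liver 2 stood highest. A separation of this kind, higher in liver, was found in 25.8% of all tested genes. The means were 115 ± 33.5 CPM and 61.0 ± 7.99 CPM (SD, n = 3 each), a log2 fold change of 0.92 ± 0.23 (SE) with an adjusted p of 0.0154 by edgeR's quasi-likelihood test. The call was lost without liver 2 (log2 fold change 0.64, adjusted p 0.0522), without blood 1 (0.77, adjusted p 0.0698) and without liver 3 and blood 1 together (0.89, adjusted p 0.0627). Liver 2, with the highest Adam17, had the lowest monocyte and macrophage marker sums of the liver libraries, at 3326 and 615 CPM. Most of that monocyte sum was Nr4a1. Liver 2 also had the highest neutrophil marker sum of the liver libraries, at 13600 CPM. What part these cell types had in the result was not tested. Exons of Adam17 share 311 bases with Iah1 on the opposite strand, and Iah1 itself had 57 to 130 counts per library, against 722 to 2553 for Adam17. Whether counting used strand is not given in the sources used here.

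Adam19 (ENSMUSG00000011256.16), also called meltrin beta, encodes a protease known for processing neuregulin and for a role in heart development. It lies on the plus strand of chromosome 11 from 46055992 to 46147343. Its level was 168, 173 and 169 CPM in liver 1, 2 and 3, and 865, 1040 and 757 CPM in blood 1, 2 and 3. The 3 liver libraries were nearly equal, with a coefficient of variation of 1.56% against 16.1% in blood, and the groups were far apart. Liver below blood without overlap was seen in 22.7% of all tested genes. The log2 fold change was -2.38 ± 0.21 (SE), with an adjusted p of 0.000154 by edgeR's quasi-likelihood test. This call held in all 15 alternatives tried, with log2 fold changes from -2.53 to -2.24.

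The promoters of Adam17 and Adam19 are shown because these are the called members with an entry in the RefSeq promoter table, 1 higher and 1 lower in liver. They are the 250 bases before the start of transcription in RefSeq (GRCm38.p6), which held 5 of the 8 members, printed 5′ to 3′ on the strand of the gene. Capitals mark matches on either strand to any of 7 short motifs, the GC box with letters GGGCGG, the CCAAT box, the TATA box with letters TATAAA, the ETS motif with letters CCGGAAG, the AP-1 motif with letters TGANTCA, the E-box with letters CACGTG, and the letters GAGGAA. The Adam17 window is chr12:21373633-21373882 on the minus strand. The Adam19 window, of the RefSeq start nearest to the annotated gene start among 3, is chr11:46055734-46055983 on the plus strand.
Adam17: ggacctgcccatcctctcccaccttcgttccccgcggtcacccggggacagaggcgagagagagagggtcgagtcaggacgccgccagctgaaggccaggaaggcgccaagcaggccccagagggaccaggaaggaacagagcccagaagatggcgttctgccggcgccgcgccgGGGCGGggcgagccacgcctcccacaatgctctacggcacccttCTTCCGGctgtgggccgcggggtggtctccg
Adam19: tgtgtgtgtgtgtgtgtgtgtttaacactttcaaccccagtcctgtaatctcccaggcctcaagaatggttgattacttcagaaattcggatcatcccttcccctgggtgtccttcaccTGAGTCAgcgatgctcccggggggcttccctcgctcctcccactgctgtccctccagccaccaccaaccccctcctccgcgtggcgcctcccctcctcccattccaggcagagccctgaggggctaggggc
The Adam17 window held 1 GC box and 1 ETS match and was 70.4% G and C, and the Adam19 window held 1 AP-1 match and was 60.0% G and C, against a median of 52.4% over 32851 promoters. Of all these promoters, 32.7% held the GC box, 6.91% the ETS letters and 6.75% the AP-1 letters. None of the matches overlapped another. The matches describe letters only, and which start site these cells used was not measured.

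Adam10 (ENSMUSG00000054693.14, chromosome 9 from 70678997 to 70780229, plus strand) is the closest relative of Adam17 in function. It had 116, 129 and 103 CPM in liver 1, 2 and 3 and 130, 134 and 94.7 CPM in blood 1, 2 and 3. The groups overlapped, and the log2 fold change of -0.04 ± 0.20 (SE) had a 95% interval from -0.48 to 0.40, or 0.716-fold to 1.32-fold (adjusted p = 0.889 by edgeR). Its sign was positive in 4 of 15 alternatives. Per kilobase of annotated exon, Adam17 made up 35.6%, 45.1% and 39.4% of the sum of Adam10 and Adam17 in liver 1, 2 and 3, and 21.5%, 25.6% and 31.8% in blood 1, 2 and 3. All liver shares were above all blood shares, with means of 40.0% ± 4.74 and 26.3% ± 5.19 (SD, n = 3). The exact two-sided permutation p was 0.1, the smallest that 3 against 3 libraries can give, and 0.15 after adjustment over 6 such shares and ratios between members. Annotated exons span 7154 bases for Adam17, against 4469 in its longest transcript, and 4913 against 4593 for Adam10. The size of the share therefore depends on the length used.

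Rhbdf2 (ENSMUSG00000020806.15, chromosome 11 from 116598165 to 116627019, minus strand), the gene of iRhom2, had 162, 165 and 129 CPM in liver 1, 2 and 3 and 196, 253 and 199 CPM in blood 1, 2 and 3. Each liver library was below each blood library. The log2 fold change was -0.51 ± 0.19 (SE) with an unadjusted p of 0.0259 and an adjusted p of 0.0715 by edgeR's quasi-likelihood test, so it was not called. Its 95% interval ran from 0.522-fold to 0.949-fold before adjustment over genes. Blood 2, with the highest Rhbdf2, also had the highest neutrophil marker sum, at 32619 CPM. It had the highest B and plasma cell marker sum too, at 288 CPM. What part these cell types had in the Rhbdf2 level was not tested. The ratio of Rhbdf2 to Adam17, in CPM per kilobase of annotated exon, was 2.34, 1.45 and 1.78 in liver 1, 2 and 3 and 5.11, 5.12 and 4.19 in blood 1, 2 and 3. This ratio was lower in every liver library than in every blood library, at 1.86 ± 0.452 against 4.81 ± 0.536 (SD, n = 3, exact two-sided permutation p = 0.1, adjusted 0.15). Rhbdf2 was lower and Adam17 higher in every liver library, so this separation and its p follow from the 2 genes and add no further test.

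Rhbdf1 (ENSMUSG00000020282.18, chromosome 11 from 32209585 to 32222300, minus strand), the gene of iRhom1, was close to absent. It had 6, 4 and 11 counts in liver 1, 2 and 3 and 7, 0 and 0 counts in blood 1, 2 and 3, too few to be tested. A count of 0 allows up to 3 counts, which is 0.263 CPM in blood 2 and 0.201 CPM in blood 3, and this limit covers counting error only. Per kilobase, Rhbdf2 made up 99.7% ± 0.204 of the sum of both iRhom genes in liver and 99.9% ± 0.144 in blood (SD, exact two-sided permutation p = 0.3 for n = 3 each, adjusted 0.36). The smallest p that this design allows is 0.1. The groups had 21 and 7 Rhbdf1 counts in all, a liver to blood ratio of 2.54 with an exact 95% counting interval from 1.04 to 7.08. This interval leaves out the spread between libraries, and all 7 blood counts came from blood 1. The ratio was 1.60 without blood 3 and at least 3.88 without blood 1, against a floor of 3 counts in the remaining blood libraries.

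Adam8 (ENSMUSG00000025473.16, chromosome 7 from 139978932 to 139992562, minus strand) encodes a protease of myeloid cells and was the most abundant member per kilobase in each library. It had 973, 819 and 596 CPM in liver 1, 2 and 3 and 889, 1407 and 780 CPM in blood 1, 2 and 3. The groups overlapped, with blood 2 highest and liver 3 lowest. The log2 fold change of -0.37 ± 0.28 (SE) was not called (adjusted p = 0.353 by edgeR), and its 95% interval included 0, with an upper end at 0.27.

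Adam9 (ENSMUSG00000031555.15, chromosome 8 from 24949611 to 25016927, minus strand) encodes a widely expressed member of the family. It had 42.7, 26.2 and 45.7 CPM in liver 1, 2 and 3 and 20.8, 21.6 and 18.1 CPM in blood 1, 2 and 3. Liver 2 came close to the blood libraries, which were tight, and liver 1 and 3 were clearly higher. The log2 fold change was 0.92 ± 0.26 (SE), with an adjusted p of 0.0223 by edgeR's quasi-likelihood test. The call was lost without liver 1, liver 3, blood 1 or blood 3 (log2 fold changes 0.77 to 0.90, adjusted p 0.0643 to 0.0813) and without liver 3 and blood 1 together (adjusted p 0.134). The order of the liver libraries was the same for Adam9 as for the Kupffer cell and macrophage markers. Those markers summed to 787, 615 and 986 CPM in liver 1, 2 and 3. The monocyte marker sums, which were mostly Nr4a1, also had this order, with 3893, 3326 and 4345 CPM. Dendritic cell markers (229, 218 and 268 CPM) and liver endothelial markers (242, 216 and 254 CPM) had the same order too. With 3 libraries a shared order is easily met. The part of these cells in the result was not tested. For Adam17 that order was different.

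Adam15 (ENSMUSG00000028041.17, chromosome 3 from 89338542 to 89349996, minus strand) encodes a protease also found at the junctions of endothelial and epithelial cells. It had 45.9, 40.0 and 30.3 CPM in liver 1, 2 and 3 and 49.2, 57.4 and 37.5 CPM in blood 1, 2 and 3. The groups overlapped, and the log2 fold change of -0.31 ± 0.24 (SE) was not called (adjusted p = 0.345 by edgeR). An antisense gene, 4731419I09Rik, shares 1263 exon bases with it but had 1.38 to 29.3 counts per library, against 471 to 703 for Adam15.

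**Figure D2:**
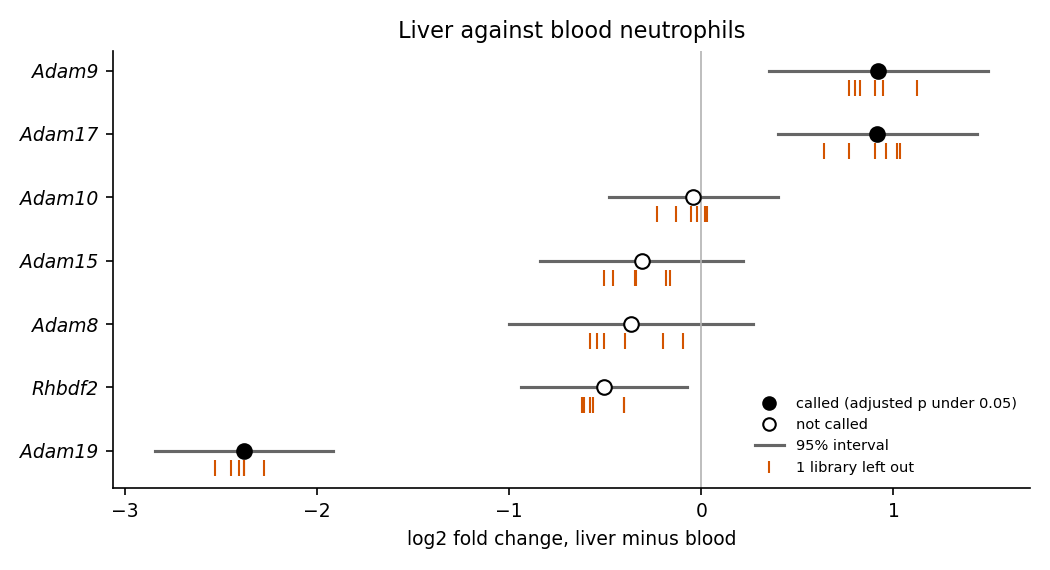
Log2 fold change of liver minus blood for the 7 tested members (circles, filled where called), with unadjusted 95% intervals (lines) and the values with 1 library left out (ticks). Adam19 stands apart at -2.38, Adam9 and Adam17 lie at 0.92, and the interval of Rhbdf2 excludes 0 although its adjusted p is 0.0715.

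Levels of different members can be set side by side only per length, here as CPM per kilobase of annotated exon. This length is the union over all transcripts and can exceed the longest one, as for Adam17 (7154 against 4469 bases) and Rhbdf2 (5293 against 3855). The levels, their order and the shares depend on it and are not numbers of transcripts. For a ratio of 2 members, another length would multiply all 6 libraries by the same factor. In blood the order of mean CPM per kilobase was Adam8 (221), Adam19 (125), Rhbdf2 (40.8), Adam10 (24.3), Adam17 (8.53), Adam15 (7.82), Adam9 (4.90) and Rhbdf1 (0.0309). In that order the libraries of Adam17 and Adam15 overlapped and those of the other neighbours did not. In liver the order was Adam8 (172), Rhbdf2 (28.7), Adam19 (24.0), Adam10 (23.6), Adam17 (16.1), Adam9 (9.28), Adam15 (6.30) and Rhbdf1 (0.0822). There Rhbdf2 overlapped Adam19, Adam19 overlapped Adam10, Adam10 overlapped Adam17 and Adam9 overlapped Adam15, while Adam17 did not overlap Adam9. With these lengths Adam19 was therefore second in blood, clear of its neighbours, and in liver it lay among Rhbdf2 and Adam10.

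The make-up of the ADAM transcripts differed as well. Of the summed CPM per kilobase of the 6 ADAM genes, Adam19 took 8.22%, 9.32% and 11.7% in liver 1, 2 and 3 and 33.7%, 29.2% and 33.9% in blood 1, 2 and 3. Adam8 took 72.8%, 67.5% and 63.3% and 53.2%, 60.6% and 53.7%, and Adam17 4.55%, 8.21% and 6.74% and 2.01%, 1.87% and 2.87%. The share of Adam8 was higher in every liver library although its CPM was not called different, since shares of 1 sum move together. The sum itself was 251 ± 43.5 CPM per kilobase in liver and 391 ± 97.6 in blood (SD, n = 3). In CPM per kilobase, Adam19 over Adam17 was 14.7 ± 2.58 in blood and 1.56 ± 0.371 in liver (exact two-sided permutation p = 0.1 for n = 3 each, adjusted 0.15). Adam19 was lower and Adam17 higher in every liver library, so the separation of their ratio was fixed by those results. The ratios between members were not among the planned results. The ratio of Adam9 to Adam17 was 0.633 ± 0.292 in liver and 0.582 ± 0.107 in blood, within its spread (exact two-sided permutation p = 0.8 for n = 3 each, adjusted 0.8).

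**Figure D3:**
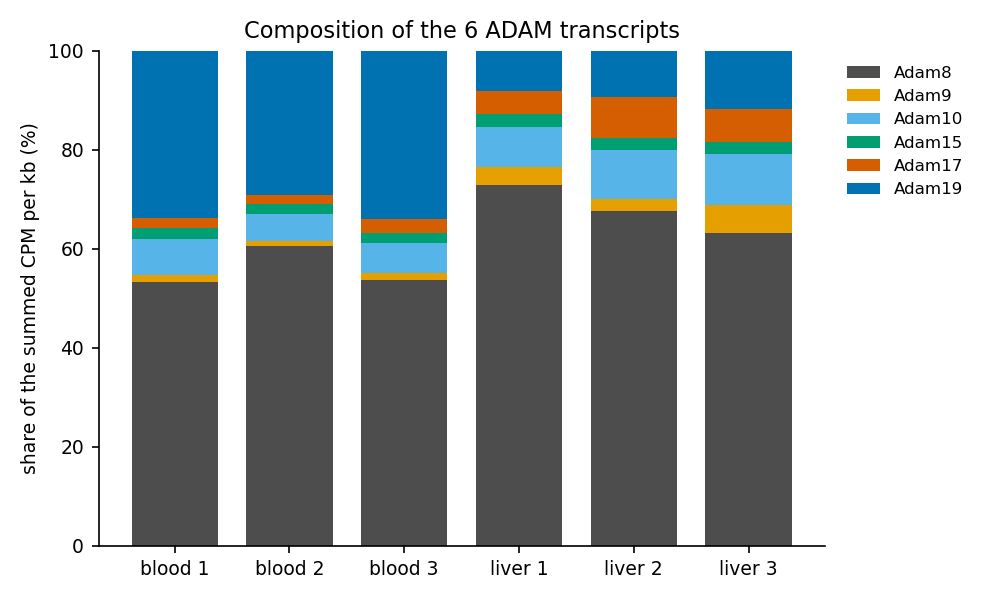
Share of each ADAM gene in the summed CPM per kilobase of the 6 ADAM genes, in percent, as stacked bars for each library. Adam19 fills 29.2% to 33.9% of the blood bars and 8.22% to 11.7% of the liver bars, and Adam8 fills the most of every bar.

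Among genes that move or activate ADAM17, 1 of 14 tested was higher and 6 were lower in liver. Their median log2 fold change was -0.14 against 0.04 over all tested genes. Of all tested genes 17.4% were called higher and 14.2% lower, and these shares are the background for each list below. Frmd8, whose product iTAP binds the iRhoms and keeps their complex with ADAM17 stable, had 31.9, 36.3 and 37.5 CPM in liver 1, 2 and 3 and 58.5, 80.7 and 74.9 CPM in blood 1, 2 and 3. The groups were apart, and Frmd8 was 2.02-fold lower in liver (adjusted p = 0.00494 by edgeR). Furin, the protease that removes the prodomains of ADAM proteins, had 275, 341 and 342 CPM in liver and 485, 485 and 552 CPM in blood, and was 1.59-fold lower (adjusted p = 0.0250 by edgeR, lost without liver 1 at 0.0906, without blood 3 at 0.0693 and without liver 3 and blood 1 together at 0.0755). Of the kinases known to act on ADAM17, Mapk14, encoding p38 alpha, was 3.01-fold lower and Mapk3, encoding ERK1, had a log2 fold change of -0.81 (adjusted p = 0.0320 by edgeR, lost in 5 of 15 alternatives). Map3k8, encoding the kinase TPL2 upstream of ERK, was 2.37-fold higher (adjusted p = 0.0277 by edgeR), a call lost without liver 2, blood 1 or blood 3 (adjusted p 0.0839 to 0.0951) and without liver 3 and blood 1 together (0.0927).

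Tetraspanins that escort ADAM10 showed 0 of 4 tested genes called by edgeR, with 0 of 4 at an unadjusted p under 0.05 and 0 of 4 called by DESeq2. Tspan14 averaged 57.6 ± 4.37 CPM in liver against 73.9 ± 4.37 CPM in circulating cells (SD, n = 3) and had an adjusted p of 0.138 by edgeR. Each of its liver libraries was below each blood library. It was chosen here after its values were seen, as the gene of the list with the most reads.

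Of 6 genes of inhibitors, 2 had enough reads to be tested and both were lower in liver, where 14.2% of all tested genes were. Timp2, whose product acts mainly on matrix metalloproteinases, had 94.6, 77.1 and 52.4 CPM in liver 1, 2 and 3 and 141, 164 and 145 CPM in blood 1, 2 and 3, a 2.01-fold difference (adjusted p = 0.00988 by edgeR). Reck, a membrane-anchored inhibitor of metalloproteases, was 4.82-fold lower, at 1.40 ± 0.495 CPM against 6.78 ± 1.86 CPM (SD, n = 3). Timp3, the known inhibitor of ADAM17, had only 41 counts in the liver group and 3 in the blood group, a ratio of 11.6 with an exact 95% counting interval from 3.69 to 58.5. All 3 blood counts were in blood 2. The ratio was 7.57 without blood 1, 7.29 without blood 3 and at least 8.29 without blood 2. For Timp1 the sums were 0 and 3 counts.

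**Figure D4:**
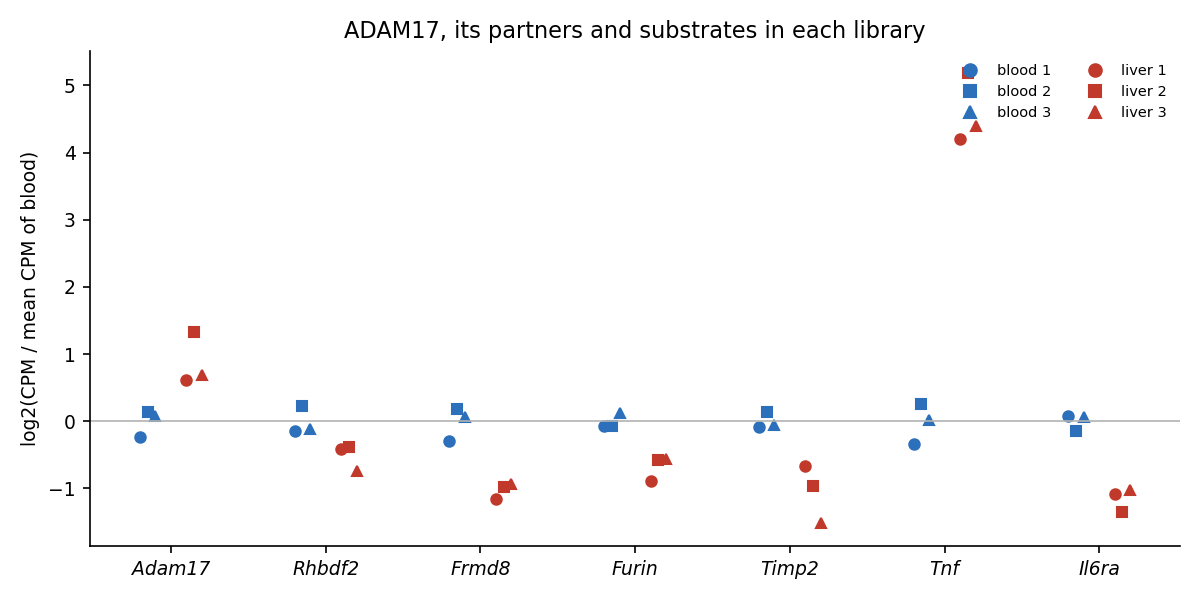
Log2 of the CPM of each library over the mean CPM of the blood libraries, for Adam17, its partners, the inhibitor gene Timp2 and 2 substrate genes, with circles, squares and triangles for libraries 1, 2 and 3. Adam17 and Tnf lie above 0 in all liver libraries, and Frmd8, Furin, Timp2 and Il6ra lie under it.

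Transcripts of proteins that ADAM17 and ADAM10 cut moved in both directions. Of 21 tested inflammatory substrates, 7 were higher and 3 lower, with a median log2 fold change of 1.35. Of all tested genes 17.4% were higher and 14.2% lower. That median was the value of Vcam1 (1.35 ± 1.93, SE), which was not called and was at 0 CPM in blood 2 and 3. Vcam1, Cd163, Mertk, Axl, Lag3 and Cxcl16 entered the test only through the liver libraries. The median and the count of higher genes are therefore no result about the list. Il6ra, the interleukin 6 receptor gene, had 203, 168 and 211 CPM in liver 1, 2 and 3 and 451, 385 and 447 CPM in blood 1, 2 and 3. The groups were apart, and Il6ra was 2.20-fold lower in liver (adjusted p = 0.00236 by edgeR). Gp1ba, named after its values were seen, also fell and is also a platelet marker. It was 4.45-fold lower, and 5 of 8 tested platelet markers were lower in the same comparison. Tnf, the namesake substrate of ADAM17, went the other way, with 119, 234 and 136 CPM in liver 1, 2 and 3 and 5.10, 7.71 and 6.51 CPM in blood 1, 2 and 3. It was 25.3-fold higher in liver (adjusted p = 7.46e-05 by edgeR), and its highest library was liver 2, as for Adam17. Cxcl16, a membrane-bound chemokine cut by ADAM10, was 32.3-fold higher and Trem2, a receptor of macrophages, 4.97-fold higher. Icam1, which was 20.4-fold higher, is also among the genes cut by ADAM17. Tnfrsf1b, the gene of TNF receptor 2, named after its values were seen, was 2.02-fold higher, at 697 ± 125 CPM against 345 ± 11.9 CPM. Tnf, Trem2 and Cxcl16 are also expressed by macrophages, of whose markers 6 of 13 were higher in liver, and the part of those cells was not tested.

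Ligands of the EGF receptor, which ADAM17 and ADAM10 release, were rare. Of 8 genes, 2 were tested and both were higher in liver, where 17.4% of all tested genes were. Hbegf had enough reads to be tested only through the liver libraries, so 2 of 2 is no result about the list. Hbegf had 5.81, 5.72 and 6.63 CPM in liver 1, 2 and 3 and 0.0719, 0.613 and 0.0671 CPM in blood 1, 2 and 3, with 9 counts in all blood libraries together, and the exact 95% counting interval of the ratio ran from 14.0 to 59.7. Blood 2 held 7 of those 9 counts, and without it the ratio was 87.1 and the log2 fold change went from 4.64 to 6.26. Nrg1, the neuregulin gene, rose by 1.92 ± 0.50 on the log2 scale (SE, adjusted p = 0.0172 by edgeR), a call lost without liver 1 at 0.0681, without blood 3 at 0.0607 and without liver 3 and blood 1 together at 0.0636. Areg had 40 counts and Tgfa 26 in the liver group, and neither had any in blood. With 3 counts in the whole blood group as the floor, Areg was at least 11.3-fold and Tgfa at least 7.34-fold higher. Of the 40 Areg counts 28 were in liver 1, and without that library the limit was 5.00-fold. With 1 blood library left out, and the floor set in the remaining blood libraries, the limits were 7.11-fold to 8.09-fold for Areg and 4.62-fold to 5.26-fold for Tgfa. The receptors themselves were at most barely seen, and Erbb3, the only tested member of 4, was not called.

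Of 10 tested genes for Notch pathway proteins, the amyloid precursor family, cadherins and the prion protein, 2 were higher and 2 lower. These counts were near the shares of all tested genes, 17.4% higher and 14.2% lower. Notch1 had 198, 245 and 305 CPM in liver 1, 2 and 3 and 623, 870 and 587 CPM in blood 1, 2 and 3, and was 2.78-fold lower (adjusted p = 0.00240 by edgeR). Notch2 was 1.83-fold lower, at 1004 ± 122 CPM against 1840 ± 35.2 CPM (SD, n = 3), with an adjusted p of 0.0116 by edgeR that became 0.0849 without liver 3 and blood 1 together. The Notch ligand gene Dll4 and the endothelial cadherin gene Cdh5 were 11.5-fold and 26.2-fold higher, each with a mean under 10 CPM. With 16 and 14 counts in the blood group, both entered the test only through the liver libraries, so their direction says nothing about the list. The log2 fold change of Cdh5 went from 4.71 to 3.91 without liver 3, to 6.22 without blood 1 and to 5.44 without both, and that of Dll4 from 3.52 to 4.47 without blood 2, with each call kept. Liver endothelial markers, of which Cdh5 is a member, summed to 216 to 254 CPM in liver and 68.0 to 115 CPM in blood. Among 7 subunits of gamma-secretase, which cuts the stubs left by ADAM10, only Aph1c was called, 3.10-fold higher, and its close copy Aph1b, with 9.97 ± 3.74 CPM against 13.6 ± 4.43 CPM, was not. Reads can pass between these copies, so the value of either is uncertain.

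Most other genes of the family were silent or nearly so. Of 24 further ADAM genes, 8 had no count in any library and 4 were tested, of which 3 were higher in liver. Of all tested genes 17.4% were higher. Adam11, with 1 count in the blood group, entered the test only through the liver libraries, so its direction says nothing about the list. Adam30, known mainly from testis, had 24.2, 33.4 and 15.2 CPM in liver 1, 2 and 3 and 1.80, 4.99 and 3.02 CPM in blood 1, 2 and 3, and was 7.45-fold higher (adjusted p = 0.00176 by edgeR). Adam11 and Adam22 encode members without protease activity that are known from neurons. Adam11 had 453 counts in the liver group and 1 in the blood group, a ratio of 384 with an exact 95% counting interval from 68.5 to 15194. Without blood 1 or blood 3 the ratio was 251 or 242, and without blood 2, which held the only blood count, it was at least 91.6. Adam22 was 3.86-fold higher at 3.58 ± 0.603 CPM in liver. The Adam22 call was lost without liver 3 and blood 1 together (adjusted p 0.0895). Of 6 tested further rhomboid relatives, Derl2, which helps to clear misfolded proteins from the endoplasmic reticulum, was the only gene called, 2.53-fold lower at 14.9 ± 0.683 CPM against 37.7 ± 4.65 CPM (SD, n = 3). Derl2 and Cxcl16 overlap the protein-coding genes Mis12 and Zmynd15 on the opposite strand. Timp2 and Mapk14 overlap the protein-coding genes Cep295nl and AC170998.1 on the same strand. Reads of the overlapping genes could be counted with Derl2, Cxcl16, Timp2 and Mapk14.

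**Figure D5:**
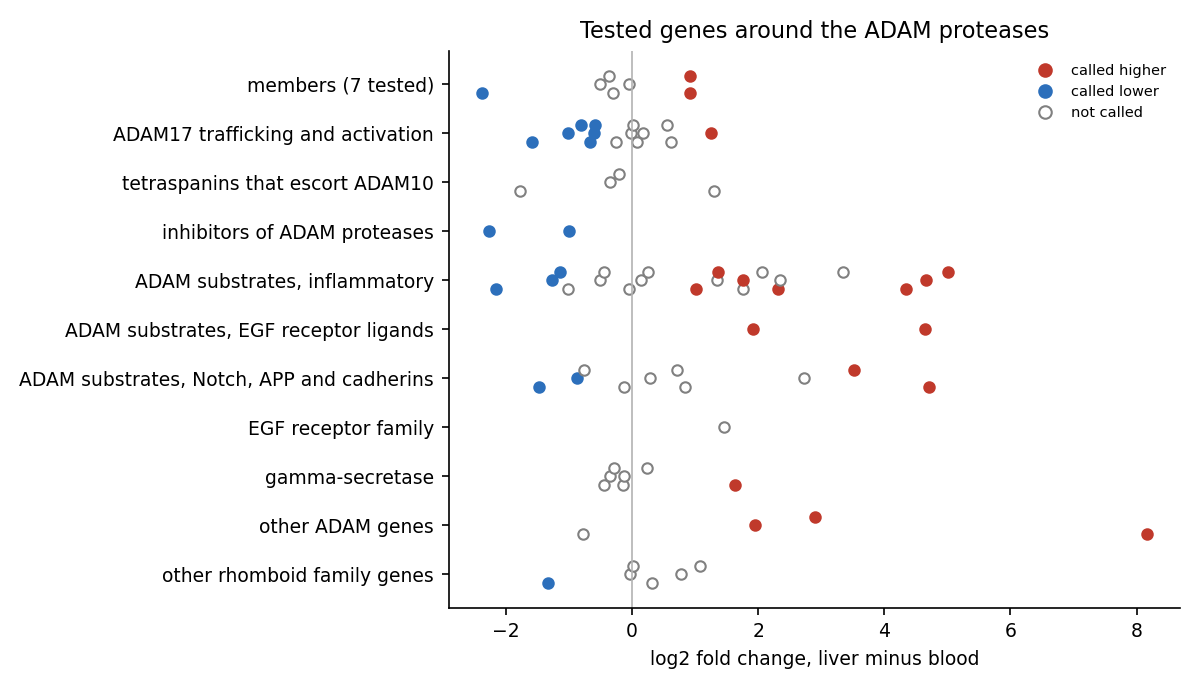
Log2 fold change of liver minus blood of each tested gene, by list, with filled red and blue circles for genes called higher and lower and open circles for genes not called. Of the called genes of ADAM17 trafficking and activation 6 lie left of 0 and 1 right of it, both inhibitors lie left, and the inflammatory substrates reach from -2.15 to 5.01.

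Profiles over the 6 libraries, as log2 CPM centred on their mean, were compared by the root mean square distance. The nearest genes to Adam8 were Zfand6 (0.0351) and Atg12 (0.0743), those to Rhbdf2 were Prcc (0.0396) and Myh9 (0.0438), and those to Adam17 were Hccs (0.104) and Rnf19a (0.107). Like Adam17, Rnf19a was highest in liver 2, with 104 CPM, and was called higher in liver (log2 fold change 0.75, adjusted p = 0.0288 by edgeR). With 6 libraries in 2 groups such likeness describes these libraries only.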

How the data were processed

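Paired-end libraries were made with a low-input stranded total RNA kit, per the labels' protocols, and the submitters' processing notes name FastQC 0.11.5, STAR, RSEM, limma and the build GRCm38. For the strand setting of the counting and the versions of STAR and RSEM, the entry is: not given in the sources used here. The authors deposited expected counts per gene and library, as RSEM estimates them. These were rounded, filtered with filterByExpr (13458 genes kept), scaled with TMM and fitted with edgeR 4.0.16 (robust quasi-likelihood F test, R 4.3.3, all 6 libraries, no covariate), after the script was tested on simulated data. Adjusted p-values are Benjamini-Hochberg values over all tested genes, and genes were called under 0.05. The SE is the log2 fold change over the root of F. CPM per kilobase used the union of exons in GENCODE release M21, matched by gene ID. Totals of 13054684 to 17579671 counts make 3 counts equal to 0.181 to 0.263 CPM. Counting intervals and floors cover counting error only. The members and lists were chosen with earlier results of these data known. Named were all members, 7 further genes fixed by name, and the 2 nearest profiles of 3 members. From each list the called genes were named where there were 4 or fewer. Otherwise the 4 with the largest change were named, among those with a mean of at least 5 CPM in a group. Alternatives covered the scaling, the test (DESeq2 1.42.0, limma 3.58.1), filters, repeated symbols, a replicate block and left-out libraries. The values of 1 gene of the substrate list are not reported here.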

Additional observations from a re-analysis of the deposited data

How the results depend on the processing

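Adam19 was called in all 15 alternatives, Adam17 in 12 and Adam9 in 10, each with the sign of the reported value in all 15. The number of members called, 3 as reported, ran from 1 (without blood 1) to 3 with 1 library left out and was 1 without liver 3 and blood 1 together, where Adam19 alone was called. That last fit, with fewer libraries, called 2826 genes (1631 higher, 1195 lower) against 4252. With 1 library left out, 3055 to 3556 genes were called. Without a filter on low counts the median log2 fold change of all genes was 0.42, against 0.04. With the replicate number as a block, 4634 genes were called, and Rhbdf2 passed the threshold (log2 fold change -0.51, adjusted p = 0.0274 by edgeR). Same-numbered liver and blood libraries had correlated deviations of 0.0541, 0.156 and 0.0225 across 13458 genes. Liver 1 and liver 2 each correlated best with the blood library of the same number, and liver 3 correlated best with blood 1 (0.12). These values do not settle if the numbers mark pairs. The labels do not state pairs, so the numbers were not taken as such. Genes with few counts, Rhbdf1 first, are limited by depth. Ratios of genes with few blood counts were also computed with each library left out, which was chosen after seeing the data.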
